A study of Mus musculus with 5 samples.

Results

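Endocrine cells of the pancreas, which form the islets, store peptide hormones in dense-core secretory granules and release them when blood glucose or other signals change. A cascade of transcription factors started by Neurog3 sets up the endocrine lineage in the embryo. Granins, prohormone convertases and granule membrane proteins then build the granule, and a glucose transporter and a potassium channel couple glucose to secretion in beta cells. The genes described here are a list of 30 such symbols without the hormones themselves, made up of 10 transcription factors, 9 granule content and processing genes, 3 granule membrane and exocytosis genes and 8 genes of beta-cell glucose response and related function. Of these, 29 were found among the 16992 symbols common to all libraries, and the symbol Pax4 was in none of the tables.

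RNA was sequenced from cells freshly sorted from the pancreas of C57BL/6 mice aged 2 to 4 months, in 2 libraries sorted as CD133(positive)CD71(negative) and 3 sorted as CD133(high)CD71(low). The surface glycoprotein CD133 is the product of Prom1 and the transferrin receptor CD71 that of Tfrc. Per its title the series concerns colony-forming progenitor cells of the adult pancreas. The labels name no genetic change or agent in either group. Whether the libraries stand for separate animals, pools or sorts is not said, so the spread that p-values measure may be technical. The CD133(high)CD71(low) library whose title carries no number is called library 3.

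Values are RPKM, read numbers scaled to transcript length and library depth, on which genes of different length can be compared. Depth estimated from the steps between low values was 19.8 to 41.9 M reads per library. Library 3 was deposited with another set of gene symbols and stood apart, with a Pearson r across genes of 0.957 and 0.961 with libraries 1 and 2 of its group, against 0.996 between those libraries. Prom1 measured 45.8 to 48.8 RPKM in CD133(positive)CD71(negative) libraries and 72.8 to 133.3 RPKM in CD133(high)CD71(low) libraries, and Tfrc 4.00 to 4.36 against 5.34 to 12.2 RPKM. Neither marker gene passed the test over all libraries (limma adjusted p = 0.0909 and 0.151).

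Several granule genes carry the cAMP response element, the site of the factor CREB, close to their start. It is shown for description only, and its relation to the levels that follow was not tested. RefSeq upstream sequence (GRCm38.p6, the assembly of mm10) was matched by symbol for 21 of the 29 genes. In the 250 bases before the start, the palindrome TGACGTCA was found in 4 of the 21 genes (Chgb, Scg2, Pcsk1 and Pax6) and in 1.55% of 32851 upstream windows of the same length. The looser form TGACGTNA, searched on both strands and including the palindrome, added Chga, for 5 of 21 genes and 2.52% of all windows. Among granule content genes it was present in 4 of the 8 with a sequence. The 30 bases around each match are printed on the strand of the gene, with the match in capitals. Those of Chgb and Scg2 overlap an exon of a longer transcript in the GENCODE annotation of mm10, and the others overlap no exon of their gene.
Chgb, chr2:132781559-132781588, plus strand: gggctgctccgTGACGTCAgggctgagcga
Scg2, chr1:79440076-79440105, minus strand: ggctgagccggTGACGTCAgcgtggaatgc
Chga, chr12:102554886-102554915, plus strand: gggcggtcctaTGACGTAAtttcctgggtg
Pcsk1, chr13:75089768-75089797, plus strand: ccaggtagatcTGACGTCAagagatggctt
Pax6, chr2:105668809-105668838, plus strand: tctggccgccgTGACGTCAtccgcgcccgg
The match began 72, 68, 44, 78 and 76 bases before the start in this order. No match was found in the same window of Slc2a2, Resp18 or Scg5, which were named for their levels below. The remaining genes with a sequence had no match either. The 150 bases before the start of Slc2a2 and Resp18 are shown for comparison.
Slc2a2, chr3:28697753-28697902, plus strand: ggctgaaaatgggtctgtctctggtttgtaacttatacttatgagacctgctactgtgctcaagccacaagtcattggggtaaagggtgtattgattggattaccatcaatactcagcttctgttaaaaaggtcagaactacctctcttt
Resp18, chr1:75278416-75278565, minus strand: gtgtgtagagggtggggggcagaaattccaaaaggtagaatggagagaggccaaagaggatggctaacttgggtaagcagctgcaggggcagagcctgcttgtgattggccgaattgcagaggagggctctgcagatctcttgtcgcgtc

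Most endocrine transcription factor and granule genes were at lower levels in the CD133(high)CD71(low) libraries, while the glucose transporter gene Slc2a2, the calcium sensor gene Syt7 and the transport protein gene Ttr rose. In 18 of the 29 genes (62.1%) every CD133(high)CD71(low) library lay below both CD133(positive)CD71(negative) libraries, against 18.0% of all symbols with a value above 0. In 6 genes (20.7%) every one lay above, against 44.5% of all symbols. After median-of-ratios scaling these counts were 19 below and 4 above, against 28.4% and 18.3% of all symbols. In these bulk libraries fewer endocrine cells and less RNA per endocrine cell cannot be told apart.

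The test over all libraries (limma on log2(RPKM + 1), genes with a mean of at least 1 RPKM, adjusted p under 0.05) covered 19 of the 29 genes. Of these, 3 rose and 3 fell, each 15.8%, against 6.25% of all 11769 tested genes that rose and 7.22% that fell. The median log2 fold change, positive where CD133(high)CD71(low) is higher, was -0.62 over the 19 genes and 0.31 over all genes. Without library 3, 10 of 20 tested genes fell (50%) and 5 rose (25.0%), against 12.2% and 40.9% of all genes. With median-of-ratios scaling the median over all genes was 0.02, and 2 fell and 1 rose, against 9.66% and 1.91% of all genes. With this scaling and without library 3, 11 of 20 fell (55.0%) and 4 rose (20%), against 18.1% and 12.3% of all genes. Omitting library 1 of CD133(high)CD71(low), 1 gene was lower and 1 higher, against 6.63% and 0.753% of all genes, and omitting its library 2, 2 were lower and 1 higher, against 4.75% and 0.338%. With either CD133(positive)CD71(negative) library omitted, 0 of the genes passed in limma (at an unadjusted p under 0.05, 3 higher in each case and 4 or 3 lower). In those fits 0% and 0.00855% of all genes were called higher and 1.34% and 1.32% lower. A pseudocount of 0.1 gave 3 higher and 1 lower, against 6.33% and 6.92% of all genes. A minimum mean of 5 gave 2 and 0, against 6.44% and 4.02% (5 lower at an unadjusted p under 0.05 in limma). Scg5, with a mean of 2.66 RPKM, was not tested at that minimum. Quantile normalization gave 1 higher and 3 lower, against 7.15% and 8.72%.

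**Figure D1:**
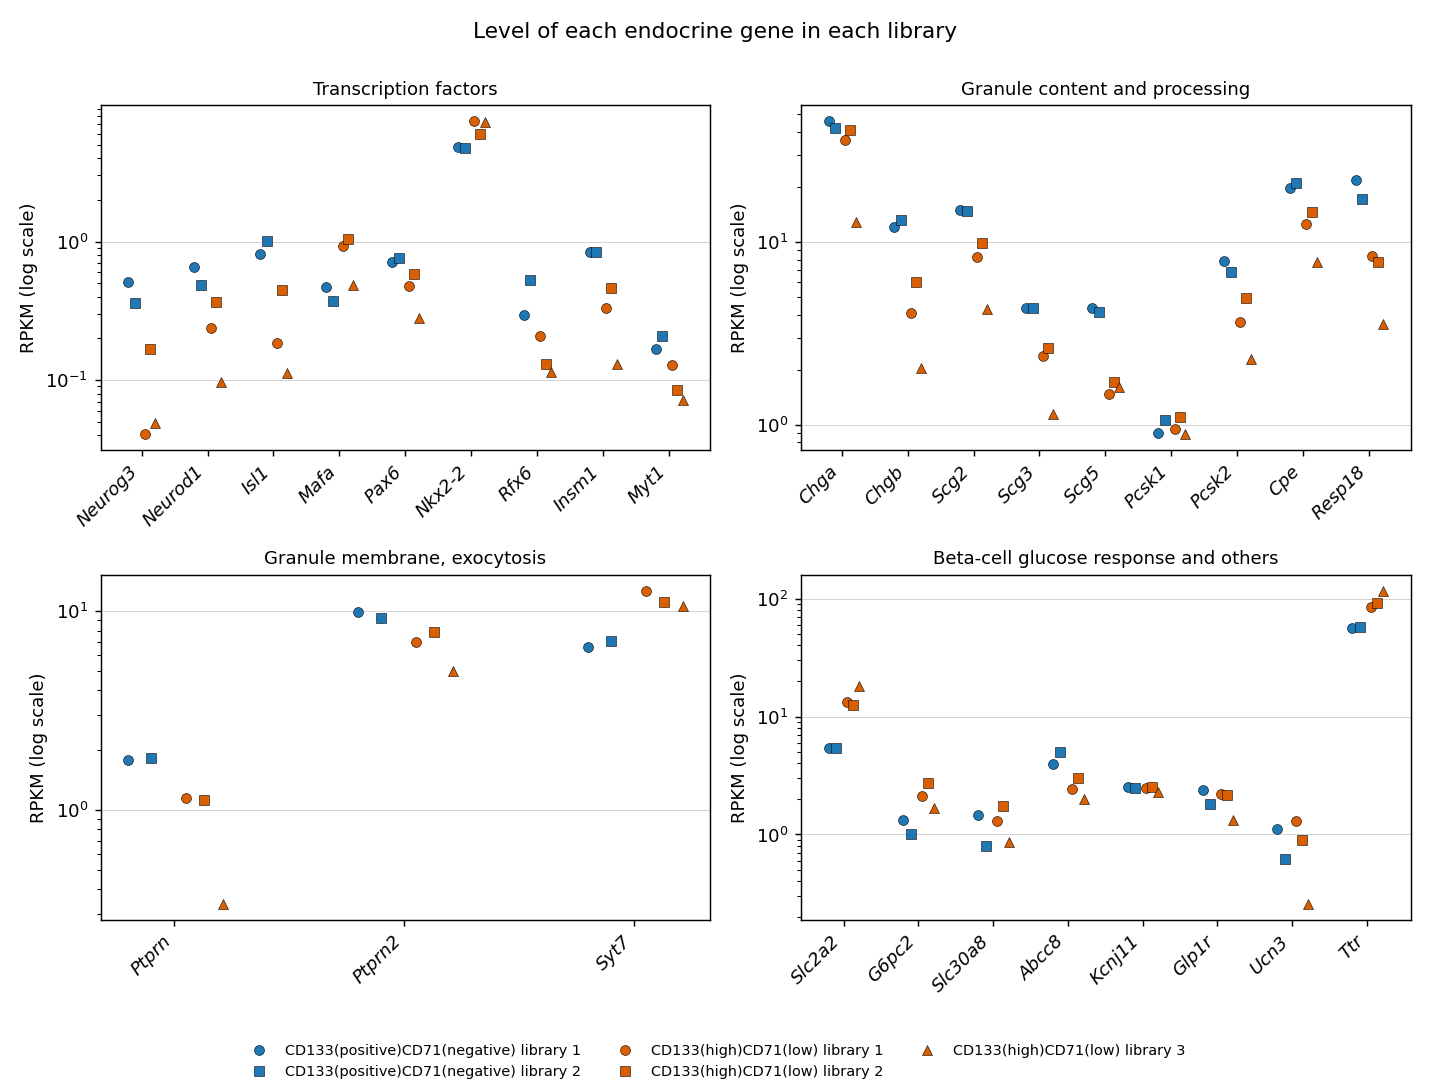
RPKM (log scale) of the 29 genes in each library, in 4 panels by role, with blue points for CD133(positive)CD71(negative) (2 libraries) and orange points for CD133(high)CD71(low) (3 libraries: circle, square and triangle for libraries 1, 2 and 3). In 18 genes all orange points lie below the blue ones and in 6 all lie above, and library 3 is the lowest of the 5 in 20 genes.

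Of the 9 transcription factors measured, 8 had a mean below the minimum of 1 RPKM. Neurog3, the factor that starts endocrine differentiation, measured 0.509 and 0.360 RPKM in CD133(positive)CD71(negative) libraries 1 and 2, and 0.0406, 0.168 and 0.0488 RPKM in CD133(high)CD71(low) libraries 1, 2 and 3. All CD133(high)CD71(low) values were below the others, at about 2 to 8 reads per library against about 11 to 20. The antisense gene Fam241b overlaps the exons of Neurog3, and whether counting used the strand is not given. Isl1, a homeodomain factor of all islet cell types, measured 0.807 and 1.02 RPKM against 0.186, 0.449 and 0.112 RPKM. Both were under the minimum mean and were tested only in a fit without it, where they passed (limma adjusted p = 0.0299 for Neurog3 and 0.0419 for Isl1), in a fit that called 10.2% of all genes lower and 5.67% higher.

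Insm1, a zinc finger factor acting downstream of Neurog3, was likewise lower in every CD133(high)CD71(low) library, at 0.331, 0.461 and 0.131 RPKM against 0.843 and 0.834 RPKM, and missed the threshold in that fit (limma adjusted p = 0.0533). Neurod1, a direct target of Neurog3, measured 0.660 and 0.485 against 0.238, 0.364 and 0.0961 RPKM (limma adjusted p = 0.0957). Its exons overlap those of Cerkl on the same strand and of Gm26755 on the other. Pax6 (0.712 and 0.763 against 0.481, 0.583 and 0.282 RPKM), a paired-box factor of islet cells, did not overlap between groups either. The same held for Rfx6 and Myt1, both under 0.53 RPKM in every library. For 7 of the 9 measured factors the groups were thus separate, with CD133(high)CD71(low) lower, also after median-of-ratios scaling, against 18.0% and 28.4% of all symbols.

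Nkx2-2 and Mafa ran the other way. Nkx2-2, a homeodomain factor needed for beta-cell formation, was the most abundant factor of the list, at 4.79 and 4.73 RPKM in CD133(positive)CD71(negative) and 7.40, 5.96 and 7.36 RPKM in CD133(high)CD71(low) libraries. No other factor of the list exceeded 1.05 RPKM in any library. The 3 values of the second group lay above both others, without passing over all libraries (log2 fold change 0.45, SE 0.14, limma adjusted p = 0.0882). Without library 3 Nkx2-2 passed (limma adjusted p = 0.0119), and with median-of-ratios scaling added it did not (limma adjusted p = 0.168). Its exons overlap the antisense gene Nkx2-2os, and whether counting used the strand is not given in the sources used here. Mafa, an activator of insulin transcription in mature beta cells, measured 0.472 and 0.373 RPKM against 0.926, 1.05 and 0.486 RPKM, so that library 3 lay just above the first group. After median-of-ratios scaling its groups overlapped.

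Of 8 granule content genes tested over all libraries, 3 fell and 0 rose (at an unadjusted p under 0.05, 7 were lower and 0 higher in limma), against 7.22% of all genes that fell. With median-of-ratios scaling 1 of 8 fell, against 9.66%, and with no minimum mean 1 of 9, against 10.2%. Of 9 tested without library 3, 7 fell and 0 rose, also at an unadjusted p under 0.05, against 12.2% of all genes that fell. Their summed level was 131.8 and 124.5 RPKM in CD133(positive)CD71(negative) libraries and 78.0, 89.4 and 36.4 RPKM in CD133(high)CD71(low) libraries. In 8 of the 9 genes the CD133(high)CD71(low) values lay below the others without overlap, also after median-of-ratios scaling, against 18.0% and 28.4% of all symbols. Library 3 was the lowest of all libraries in 8 of the 9, and in 15.0% of all symbols.

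Chgb (chromosome 2, 132781278 to 132795079, mm10), encoding chromogranin B, a granin that helps to form granules, measured 12.1 and 13.2 RPKM in CD133(positive)CD71(negative) and 4.07, 6.01 and 2.05 RPKM in CD133(high)CD71(low) libraries. It fell by 1.52 on the log2 scale (SE 0.35, limma adjusted p = 0.0468), and fell by 1.197 without library 3 (limma adjusted p = 0.000133). The adjusted p was 0.0514 with median-of-ratios scaling, 0.0564 with a pseudocount of 0.1, 0.0605 with no minimum mean and 0.0572 with a minimum of 5. It was 0.102 without CD133(high)CD71(low) library 1, and 0.321 and 0.258 without CD133(positive)CD71(negative) library 1 or 2. Resp18 (chromosome 1, 75272199 to 75278415), encoding a luminal protein of the granule pathway, was 21.8 and 17.3 RPKM against 8.404, 7.76 and 3.54 RPKM. It fell by 1.501 (SE 0.35, limma adjusted p = 0.0468) and fell by 1.17 without library 3 (limma adjusted p = 3.65e-05). Its adjusted p was 0.058, 0.0533, 0.0598 and 0.0564 under the same 4 settings. It was 0.0567 and 0.0921 without CD133(high)CD71(low) library 1 or 2, and 0.365 and 0.221 without library 1 or 2 of CD133(positive)CD71(negative). The antisense gene Gm28902 overlaps its exons.

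Scg5 (chromosome 2, 113776362 to 113829121), encoding 7B2, the chaperone of the convertase PC2, measured 4.35 and 4.15 RPKM against 1.48, 1.72 and 1.60 RPKM, and library 3 lay between libraries 1 and 2 of its group. It fell by 1.02 (SE 0.12, limma adjusted p = 0.00608) and fell by 1.02 without library 3, but did not pass without CD133(positive)CD71(negative) library 1 or 2 (limma adjusted p = 0.133 and 0.118). Pcsk2, encoding PC2 itself, which cleaves proglucagon and proinsulin, measured 7.87 and 6.88 RPKM against 3.64, 4.95 and 2.30 RPKM. Its log2 fold change was -0.89 (limma adjusted p = 0.0794, and 0.00245 without library 3). The antisense genes Pcsk2os1 and Pcsk2os2 overlap its exons. Pcsk1, encoding the related convertase PC1/3, was alike in level, with 0.904 and 1.06 RPKM against 0.944, 1.11 and 0.886 RPKM. Its groups overlapped, and without library 3, where it was tested, the 95% interval of the log2 difference ran from -0.22 to 0.29 (limma adjusted p = 0.83).

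The other granins and the carboxypeptidase followed Chgb in direction. Scg2, encoding secretogranin II, measured 15.0 and 14.8 RPKM against 8.28, 9.87 and 4.32 RPKM. Scg3, which binds chromogranin A to the granule membrane, measured 4.35 and 4.33 against 2.39, 2.64 and 1.15 RPKM. Cpe, encoding carboxypeptidase E, which trims basic residues from processed hormones, measured 19.7 and 20.97 against 12.6, 14.6 and 7.80 RPKM. None of the 3 passed over all libraries (limma adjusted p = 0.0951, 0.0815 and 0.096), and all 3 did without library 3 (0.00058, 0.000882 and 0.00145). Chga, encoding chromogranin A, was the most abundant granule gene of the list, at 45.8 and 41.8 RPKM against 36.2, 40.8 and 12.8 RPKM. Its difference passed neither over all libraries (log2 fold change -0.69, 95% interval -1.92 to 0.55, limma adjusted p = 0.316) nor without library 3 (-0.18, interval -0.39 to 0.02, adjusted p = 0.119), and passed without library 3 once median-of-ratios scaling was added (-0.41, adjusted p = 0.0171). The genes with the cAMP response element printed above ranged from Chgb, at 0.319 of the CD133(positive)CD71(negative) mean, to Pcsk1, at 0.996. A relation of the element to these levels was not tested.

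The 3 membrane and exocytosis genes split. Ptprn and Ptprn2, encoding the granule membrane proteins IA-2 and IA-2 beta, were lower: Ptprn measured 1.80 and 1.83 RPKM against 1.15, 1.13 and 0.337 RPKM, and Ptprn2 measured 9.95 and 9.28 against 7.03, 7.92 and 5.04 RPKM. Both passed only in fits without library 3 (limma adjusted p = 0.128 and 0.137 with it, 0.0112 and 0.0176 without). The antisense gene Gm28294 overlaps the exons of Ptprn. Syt7 (chromosome 19, 10389090 to 10453180), encoding synaptotagmin 7, a calcium sensor of granule and lysosome exocytosis, measured 6.60 and 7.14 RPKM against 12.7, 11.1 and 10.7 RPKM. It rose by 0.67 on the log2 scale (SE 0.13, limma adjusted p = 0.0295). With median-of-ratios scaling the change was 0.36 (adjusted p = 0.275), and with quantile normalization 0.42 (0.164). Syt7 did not pass without CD133(positive)CD71(negative) library 1 or 2 (0.318 and 0.203) or CD133(high)CD71(low) library 1 or 2 (0.112 and 0.107). An antisense gene, Gm26859, overlaps its exons.

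**Figure D2:**
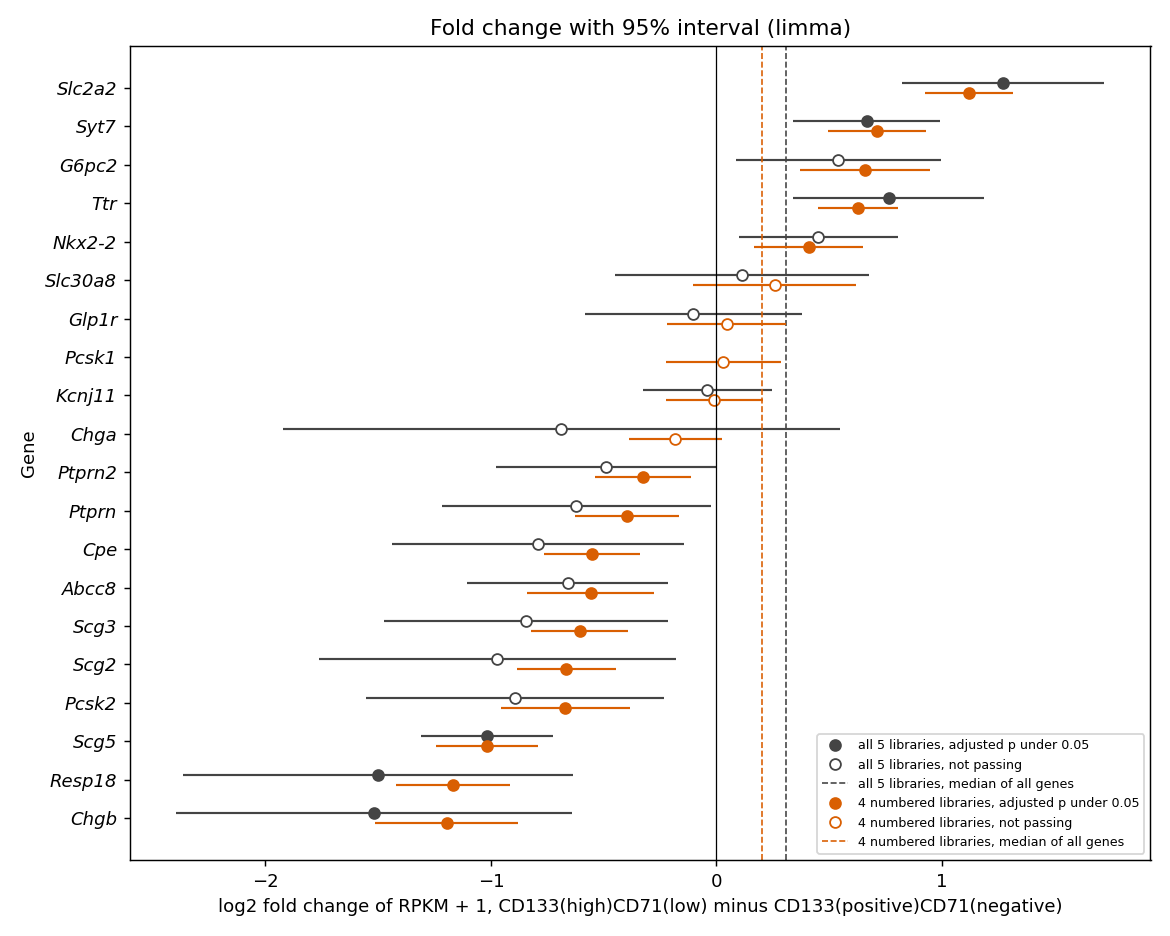
Log2 fold change of RPKM + 1 with its 95% limma interval for each gene tested, over all 5 libraries (grey) and over the 4 numbered libraries (orange), with filled points for an adjusted p under 0.05 and dashed lines at the median of all genes (0.31 and 0.20). Without library 3, 10 genes lie to the left of 0 with filled points and 5 to the right, and Pcsk1 was tested only in that fit.

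Of 7 tested genes of beta-cell glucose response and related function, 2 rose (28.6%) and 0 fell over all libraries, against 6.25% and 7.22% of all genes. At an unadjusted p under 0.05, 3 were higher and 1 lower in limma. With median-of-ratios scaling 1 rose and 1 fell, against 1.91% and 9.66% of all genes. Slc2a2 (chromosome 3, 28697903 to 28731359), encoding the glucose transporter GLUT2 of beta cells, hepatocytes and other epithelia, measured 5.43 and 5.37 RPKM in CD133(positive)CD71(negative) and 13.3, 12.6 and 18.0 RPKM in CD133(high)CD71(low) libraries. All 3 values of the second group lay far above the first, with a ratio of group means of 2.71 (log2 fold change 1.27, SE 0.18, limma adjusted p = 0.0114). Slc2a2 also passed with median-of-ratios scaling (0.97, adjusted p = 0.00406) and did not without CD133(positive)CD71(negative) library 1 or 2 (0.167 and 0.149). Ttr, encoding transthyretin, a carrier of thyroid hormone and retinol-binding protein that islet cells also make, was the most abundant gene of the list. It rose from 55.8 and 56.9 RPKM to 84.6, 90.8 and 116.6 RPKM (log2 fold change 0.76, SE 0.17, limma adjusted p = 0.0422). Its call was lost with median-of-ratios scaling (0.43, adjusted p = 0.0714), with quantile normalization (0.53, 0.0812), with a minimum mean of 5 (0.052), without library 1 or 2 of CD133(high)CD71(low) (0.0758 and 0.114) and without library 1 or 2 of CD133(positive)CD71(negative) (0.339 and 0.246). Slc2a2 and Ttr were the only genes of the 29 that were highest in library 3, against 54.4% of all symbols.

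G6pc2, an islet glucose-6-phosphatase that opposes glucokinase, measured 1.33 and 1.00 RPKM against 2.11, 2.74 and 1.66 RPKM. Its groups did not overlap before median-of-ratios scaling and did after it. It passed without library 3 (log2 fold change 0.66, limma adjusted p = 0.00275) but not with it (0.54, adjusted p = 0.101). Both subunit genes of the beta-cell potassium channel were measured, and the difference between them was not tested. Abcc8, encoding the sulfonylurea receptor SUR1, measured 3.96 and 4.998 RPKM against 2.41, 3.03 and 2.00 RPKM (log2 fold change -0.66, limma adjusted p = 0.0675, 0.0483 with median-of-ratios scaling and 0.00571 without library 3). Kcnj11, encoding the pore subunit Kir6.2, was close in all libraries, at 2.54 and 2.50 RPKM against 2.49, 2.51 and 2.28 RPKM (log2 fold change -0.04, 95% interval -0.33 to 0.25). After median-of-ratios scaling its 3 CD133(high)CD71(low) values lay below the others.

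Slc30a8, the zinc transporter of insulin granules, measured 1.46 and 0.793 RPKM against 1.29, 1.75 and 0.859 RPKM, with an interval of the log2 difference from -0.45 to 0.68. Glp1r, the receptor for the incretin GLP-1, measured 2.38 and 1.81 against 2.22, 2.14 and 1.34 RPKM, with an interval from -0.58 to 0.38. Ucn3, a peptide gene of mature beta cells, measured 1.11 and 0.614 against 1.29, 0.898 and 0.258 RPKM and was below the minimum mean. For these 3 genes the groups overlapped, and the spread within a group was as wide as the distance between the groups.

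Hormone levels in the same libraries differed by hormone. Sst (somatostatin of delta cells) measured 481.7 and 615.1 RPKM against 106.8, 131.4 and 57.8 RPKM and fell (limma adjusted p = 0.0121), whereas Ins2 (insulin) measured 731.6 and 507.6 against 1048, 1151 and 325.4 RPKM (limma adjusted p = 0.722, and 0.00142 without library 3, where it was higher). The 8 hormone genes summed to 1791 and 1621 RPKM against 1543, 1793 and 577.9 RPKM, so that library 3 was low for hormones as it was for granule genes.

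A second list of 62 endocrine genes outside the 30 held 60 measured genes, of which 36 were tested. Of these 3 rose and 3 fell (8.33% each), against 6.25% and 7.22% of all genes. The median log2 fold change was 0.15, against 0.31 for all genes. Among 9 tested transcription factors Glis3, Hhex and Foxa2 rose (33.3%, against 6.25% of all genes). Glis3, a zinc finger factor of duct and beta cells, measured 13.3 and 15.9 RPKM against 28.1, 28.4 and 32.0 RPKM (log2 fold change 0.97, limma adjusted p = 0.0106). Hhex, a factor of delta cells and of duct epithelium, measured 63.6 and 79.2 against 125.4, 123.4 and 151.2 RPKM, and Foxa2, expressed throughout pancreatic epithelium, 20.8 and 23.5 against 36.1, 33.8 and 38.1 RPKM.

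Among 21 tested granule and exocytosis genes of this second list 2 fell (9.52%) and 0 rose, against 7.22% and 6.25% of all genes. The share that fell over all libraries was thus near that of all genes, also with median-of-ratios scaling (9.52%, against 9.66%). At an unadjusted p under 0.05 in limma 4 were lower and 1 higher. Rbp4, retinol-binding protein, measured 10.47 and 9.39 RPKM against 2.39, 3.97 and 1.54 RPKM (limma adjusted p = 0.0228). Tmem27, collectrin, a membrane protein of beta cells, measured 4.60 and 4.99 against 1.21, 2.54 and 1.45 RPKM (limma adjusted p = 0.0328). Of 6 tested genes of beta-cell metabolism and excitation 0 passed in either direction, also at an unadjusted p under 0.05 in limma. Over the whole second list, with median-of-ratios scaling and without library 3, 6 of 37 tested genes rose and 12 fell (16.2% and 32.4%). The shares of all genes were 12.3% and 18.1%. Without that scaling the balance was the other way: of the 36 tested genes 11 rose and 6 fell without library 3 (30.6% and 16.7%), against 40.9% and 12.2% of all genes. Without CD133(high)CD71(low) library 1, 1 rose and 1 fell, against 0.753% and 6.63% of all genes, and without library 2 of that group 0 rose and 3 fell, against 0.338% and 4.75% (4 higher and 5 lower at an unadjusted p under 0.05 in limma). Without CD133(positive)CD71(negative) library 1 or 2, 0 rose in either case, against 0% and 0.00855% of all genes, and 1 or 0 fell, against 1.34% and 1.32% (at an unadjusted p under 0.05 in limma, 3 or 6 higher and 4 or 2 lower).

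Markers of other cell types differed between the same libraries. All 14 leukocyte markers were lower without overlap in CD133(high)CD71(low), with sums of 1586 and 1558 RPKM against 64.4, 54.2 and 28.3 RPKM. All 9 endothelial markers were too, at 707.3 and 660.8 against 198.2, 122.8 and 66.4 RPKM. Of all symbols 18.0% were lower without overlap. The 9 duct markers summed to 2692 and 2906 against 3655, 3716 and 5670 RPKM, with 8 separate and higher, against 44.5% of all symbols. Most of this sum was Spp1 (2286 and 2425 against 2895, 2963 and 4846 RPKM). Spp1 did not pass over all libraries (limma adjusted p = 0.227), while 6 of the 9 rose, against 6.25% of all genes. The 11 acinar markers summed to 231564 and 206706 against 193139, 195787 and 87596 RPKM. Library 3 was the lowest in all 11, as it was in 8 of 9 granule content genes and 7 of 8 hormones, against 15.0% of all symbols.

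Neurons also use granins and convertases. The 11 measured neuron markers summed to 19.2 and 17.1 RPKM against 5.36, 3.89 and 2.86 RPKM. Most of this was Stmn2 (15.3 and 14.1 against 4.02, 2.80 and 1.90 RPKM), and the defining marker Elavl3 was at 0 in 4 of the 5 libraries. The 10 Schwann cell markers summed to 35.4 and 34.6 against 20.7, 21.5 and 25.0 RPKM. Of them 9 were separate and lower, against 18.0% of all symbols. Sox10 was among these (2.90 and 2.53 against 0.138, 0.12 and 0.106 RPKM). The remaining marker, Mbp, was higher (15.9 and 16.3 against 18.0, 18.7 and 21.4 RPKM). It made up most of the CD133(high)CD71(low) sums, which therefore understate the fall of the others. The mesenchymal list of 8 summed to 59.0 and 57.4 against 25.5, 22.9 and 18.9 RPKM, with 6 separate and lower. The 6 tuft cell markers summed to 27.5 and 25.1 against 3.43, 3.34 and 3.21 RPKM, with the defining marker Pou2f3 at 0 in 3 libraries. Most of the CD133(positive)CD71(negative) sums was Alox5ap (21.5 and 19.3 against 0.366, 0.379 and 0.280 RPKM). Dclk1 went the other way (1.04 and 1.07 against 2.59, 2.59 and 2.37 RPKM). What part these cells had in the levels of the endocrine genes was not tested.

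**Figure D3:**
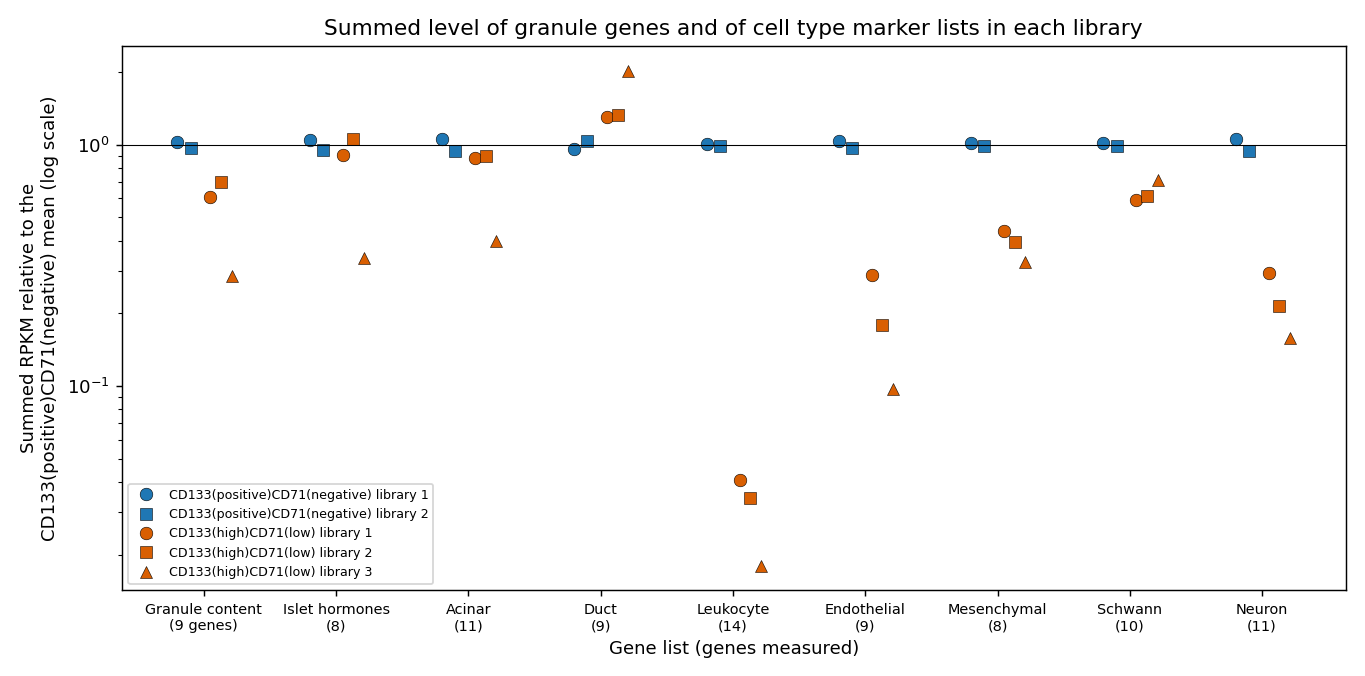
Summed RPKM of the granule content genes, the hormones and the marker lists (tuft cells not drawn) in each library, divided by the mean of the 2 CD133(positive)CD71(negative) libraries (log scale, 1 point per library). Granule content genes of the CD133(high)CD71(low) libraries lie below 1 with library 3 lowest (36.4 RPKM), and hormones of libraries 1 and 2 lie near 1. Duct markers, whose sum is mostly Spp1, lie above 1 and leukocyte markers far below. The Schwann sums of the CD133(high)CD71(low) libraries are mostly Mbp.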

How the data were processed

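Each library has its own table, keyed by gene symbol, in a unit the labels leave unstated. The values the authors deposited were read as RPKM, which cannot be told apart from FPKM here: low values times GENCODE M21 transcript length fell on steps of 1 read, but only 49.8% to 53.4% lay within 0.05 reads of a whole number (10% by chance), so counts were not rebuilt and read numbers given are approximate. The step finder and the fit were tested on simulated data. Per the submitters' processing notes Partek and mm10 were used. For aligner, annotation and strand, nothing is given in the sources used here. A row of library 3 that names no gene, listing 74.2 M alignments, was left out. That number is above the 41.9 M reads estimated for this library, and the reason for the gap was not tested.

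Values of the 16992 common symbols were analysed as log2(RPKM + 1) in limma 3.58.1 under R 4.3.3 (trended empirical Bayes, group as sole term, mean of at least 1 RPKM, Benjamini-Hochberg over all tested genes, threshold 0.05). Fold changes on this scale understate changes of low genes. Alternatives were a pseudocount of 0.1, no minimum mean, a minimum of 5, median-of-ratios scaling (factors from genes with a mean of at least 1 and no value of 0), quantile normalization, each library left out, median-of-ratios scaling without library 3, and a replicate block. With 2 libraries against 3 no exact permutation test can pass 0.05, so none was used. All 29 genes found were named. Of the second endocrine list, up to 3 genes per direction and sublist were named by size of change, except for a result that is not reported here. Marker genes were named after their values were seen. The genes, lists and rules were chosen with earlier results of these data known.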

Additional observations from a re-analysis of the deposited data

How the results depend on the processing

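With no minimum mean, 6 other endocrine genes and 1729 of all genes were lower. With a mean of at least 5, 0 of the 29 genes were lower in limma (5 at an unadjusted p under 0.05). Genes of the 29 under that mean were not tested there, among them Scg5 (mean 2.66 RPKM), which fell in the main fit. In the same fit 1 other endocrine gene and 315 of all genes (4.02%) were lower. A pseudocount of 0.1 left 1 of the 19 tested lower. Median-of-ratios scaling left 1 of the 19 tested and 225 of all genes higher, and quantile normalization left 1 of the 19 higher. With this median-of-ratios scaling and without library 3, 11 of the 20 tested were lower (55.0%). So were 12 of 37 other endocrine genes (32.4%) and 2121 of all genes (18.1%). In that fit 6 of the 37 (16.2%) and 1446 of all genes (12.3%) were higher.

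With each library left out in turn, 0 to 5 of the 29 genes were higher and 0 to 10 lower, 0 to 11 other endocrine genes were higher and 0 to 6 lower, and 0 to 4785 of all genes were higher and 154 to 1425 lower. The unadjusted counts behind the values of 0 for the endocrine genes stand in the report. For all genes the value of 0 came with 783 higher at an unadjusted p under 0.05. A group left with 1 library is assumed to vary like the other.

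With the replicate number as a block over the numbered libraries, 6 of the 20 tested genes of the list were higher and 10 lower. In that fit 12 other endocrine genes were higher and 8 lower, and 5275 of all genes were higher and 1543 lower. Same-numbered libraries did not deviate together (r = -0.02 over 11769 genes). With so few libraries this cannot show whether same-numbered libraries share an animal, pool or sort. The main fit did not use the numbers.

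The sign of the log2 fold change turned for 3 genes, which passed in neither direction over all libraries. Pcsk1 was at -0.0033 with no minimum mean and 0.031 without library 3, with or without the block. Slc30a8 was at -0.064 with median-of-ratios scaling, -0.11 without CD133(positive)CD71(negative) library 2 and -0.024 without CD133(high)CD71(low) library 2 (-0.11 to 0.34 over the single libraries left out). Glp1r was at 0.033 without CD133(positive)CD71(negative) library 1 and 0.046 without library 3, with or without the block (-0.24 to 0.046 over the single libraries left out). The cause was not tested. Neurog3 rests on about 2 reads in its lowest library, which limits its precision.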

Other observations

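The makeup of the hormone RNA differed between the groups. Ins1 and Ins2 together took 49.4% and 37.5% of the summed RPKM of the 8 hormone genes for CD133(positive)CD71(negative), against 81.6%, 79.5% and 68.5% for CD133(high)CD71(low). Sst took 26.9% and 37.9% against 6.92%, 7.33% and 10.01%, and Ppy with Pyy 7.13% and 8.58% against 1.92%, 1.73% and 3.11%. For each of these shares the groups did not overlap, library 3 included, although its hormone sum was low. The summed granule content genes came to 7.36% and 7.68% of the hormone sum against 5.06%, 4.99% and 6.31%. These shares were chosen after the values were seen and were not tested.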
